A study of Homo sapiens with 6 samples.

Results

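*TXNIP*, the 4 arrestin-domain genes *ARRDC1* to *ARRDC4*, and the transcription factor genes *MLXIP* and *MLX* were followed in RNA-Seq of MRC5 cells, a human lung fibroblast line. The 7 genes were taken from the 58676 gene identifiers of the count table by their GENCODE symbols, and all 7 had enough counts to be tested. The group was chosen from the result of this same comparison, because *TXNIP* was among the most clearly changed genes of the series, and the other 6 were added as its relatives and regulators. Fold changes of the 7 are therefore given as a description, with no test of their own.

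All 6 libraries came from MRC5 cells kept for 24 h in conditioned media (CM) of ATII cells, an alveolar epithelial type II line with a construct that 4-hydroxytamoxifen (4-OHT) switches on. In 3 libraries the CM came from untreated ATII cells (control ATII CM), and in 3 it came from ATII cells given 4-OHT (4-OHT ATII CM). The sources used here do not say whether 4-OHT was removed before the CM was collected, so an effect of 4-OHT carried over in the CM and an effect of the ATII cells cannot be told apart. These are called control CM and 4-OHT CM below. The fibroblasts of both groups were the same line with no allele or transgene named for them, and the ATII cells of both groups carried the inducible construct. The labels number the 3 libraries of a group but do not say whether they were separate cultures, so the spread and the p values below measure differences between these libraries only and may be partly technical.

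Total counts ran from 17691849 to 26389449 per library, with control CM replicate 2 the lowest. All 10 fibroblast markers examined passed the count filter, and 4 of them were called between the groups, with *COL3A1*, *PDGFRA* and *LUM* higher and *VIM* lower under 4-OHT CM, where 5.72% of all genes tested were called. Their part in the results below was not tested. Of 12 epithelial markers 7 passed it, their summed level was 93.2 to 99.0 CPM, that is, counts scaled to library size, under control CM and 90.7 to 96.6 CPM under 4-OHT CM, and *KRT8* and *KRT18* made up most of it. The epithelial cadherin gene *CDH1* had at most 3 counts in any library, the surfactant genes *SFTPB* and *SFTPC* at most 1, and *KRT5* had 0 in all 6. In bulk RNA, fewer cells of a type and less RNA per cell cannot be told apart.

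Alpha-arrestins are adaptor proteins that bring ubiquitin ligases of the NEDD4 family to membrane proteins, which are then taken up from the cell surface. TXNIP, the best studied of them, also binds and inhibits thioredoxin, and both TXNIP and ARRDC4 restrain glucose uptake. When glucose 6-phosphate builds up in a cell, the factor MondoA, encoded by *MLXIP*, enters the nucleus with its partner MLX and binds carbohydrate response elements in the promoters of *TXNIP* and *ARRDC4*, so that these transcripts serve as a readout of glucose supply. The remaining arrestin-domain genes are better known as adaptors for receptors and vesicles.

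The promoters of *TXNIP* and *ARRDC4* are shown because these were the genes of the group whose libraries did not overlap between control CM and 4-OHT CM, and that of *ARRDC3* is shown as a relative of similar abundance to *ARRDC4* whose groups overlapped. Each stretch holds the 200 bases from 250 to 51 before the RefSeq start, read 5′ to 3′ on the strand of the gene on GRCh38.p14. They lie at chr1:145996630-145996829 (minus strand), chr15:97960453-97960652 (plus strand) and chr5:91383368-91383567 (minus strand). Capitals mark CCAAT boxes on either strand, the E-box CACGTG, and the outer parts of the carbohydrate response element pattern, which was searched as CANGNG, 5 free bases and CNCNTG with at most 1 of its 8 fixed letters changed.
TXNIP: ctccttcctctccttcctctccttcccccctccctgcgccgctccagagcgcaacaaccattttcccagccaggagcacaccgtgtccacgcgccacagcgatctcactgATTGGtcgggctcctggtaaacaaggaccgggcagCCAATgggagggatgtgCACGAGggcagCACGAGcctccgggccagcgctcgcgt
ARRDC4: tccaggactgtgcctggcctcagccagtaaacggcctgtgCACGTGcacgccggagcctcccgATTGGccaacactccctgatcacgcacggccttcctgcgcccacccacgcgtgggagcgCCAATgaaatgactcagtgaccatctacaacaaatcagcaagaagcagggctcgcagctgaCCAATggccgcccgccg
ARRDC3: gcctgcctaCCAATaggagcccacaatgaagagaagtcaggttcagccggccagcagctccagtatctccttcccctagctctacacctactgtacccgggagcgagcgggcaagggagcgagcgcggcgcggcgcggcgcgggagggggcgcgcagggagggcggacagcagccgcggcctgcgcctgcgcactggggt

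RefSeq promoter windows of 300 bases, from 250 before to 50 after a start, were found for all 7 genes, with 2 starts each for *TXNIP*, *ARRDC2* and *ARRDC3*. The carbohydrate response element pattern, with 1 changed letter, was found once at *TXNIP*, from 88 to 72 bases before its upstream start, and once at *MLX*, where it overlaps an E-box. A match this close was present in 13.6% of all 35116 promoter windows, so it is common by letters alone. *ARRDC4* held no such match but had the E-box CACGTG, 210 to 205 bases before its start, a motif in 7.26% of windows. Matches are a description of letters only, and no binding was measured here.

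*TXNIP* held 2 CCAAT boxes and *ARRDC4* held 3. At least 2 were present in 10.8% of all windows and at least 3 in 3.26%. None of these boxes overlapped an E-box or the response element pattern. *ARRDC1*, *MLXIP*, *MLX*, the upstream start of *ARRDC3* and the downstream start of *ARRDC2* had 1 each, and the other starts had none. TATAA, searched on both strands, was found only at the downstream start of *ARRDC2*, whereas 20.4% of windows held it.

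**Figure D1:**
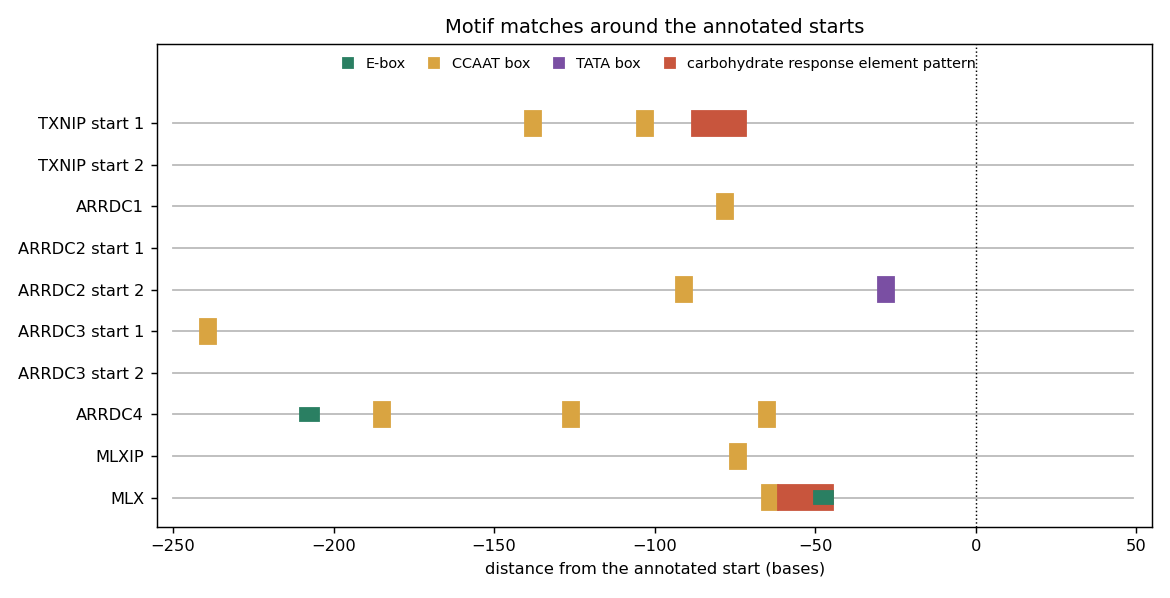
Motif matches from 250 bases before to 50 bases after each RefSeq start of the 7 genes (x axis, bases from the start; 1 line per start; colored boxes, matches drawn to their length). *TXNIP* and *ARRDC4* hold 2 and 3 CCAAT boxes, and the carbohydrate response element pattern lies at the upstream *TXNIP* start and at *MLX*.

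Levels of different genes were compared only per length, as TPM, counts scaled first to gene length and then to the library total, with the length of each gene's merged exons. *TXNIP* stood far above the rest of the group, at 418 ± 24.4 TPM (SD, n = 3) under control CM and 588 ± 13.5 TPM under 4-OHT CM. It lay above 98.5% of the genes tested, and its mean over the 6 libraries was 11.8 times that of the next member. In these fibroblasts the family's RNA was thus mostly *TXNIP*, which made up 81.3 ± 0.394% (SD, n = 3) of the summed TPM of the 5 alpha-arrestins under control CM.

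Below *TXNIP* came a cluster of 4 genes of like level. In control CM *MLX* was at 43.1 ± 3.05 TPM, *ARRDC3* at 40.0 ± 1.21 TPM, *MLXIP* at 32.7 ± 3.73 TPM and *ARRDC4* at 32.2 ± 1.75 TPM (SD, n = 3 each). *MLX* and *ARRDC3* did not differ beyond their spread, nor did *MLXIP* and *ARRDC4*. In 4-OHT CM *ARRDC4* was at 41.8 ± 1.66 TPM, a level at which *MLX* (42.0 ± 1.71 TPM), *ARRDC3* (41.7 ± 0.989 TPM) and *ARRDC4* could not be ordered. *ARRDC1* followed at 16.6 ± 1.13 TPM and *ARRDC2* at 7.10 ± 1.01 TPM under control CM, the last close to the median of all genes tested (7.97 TPM).

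**Figure D2:**
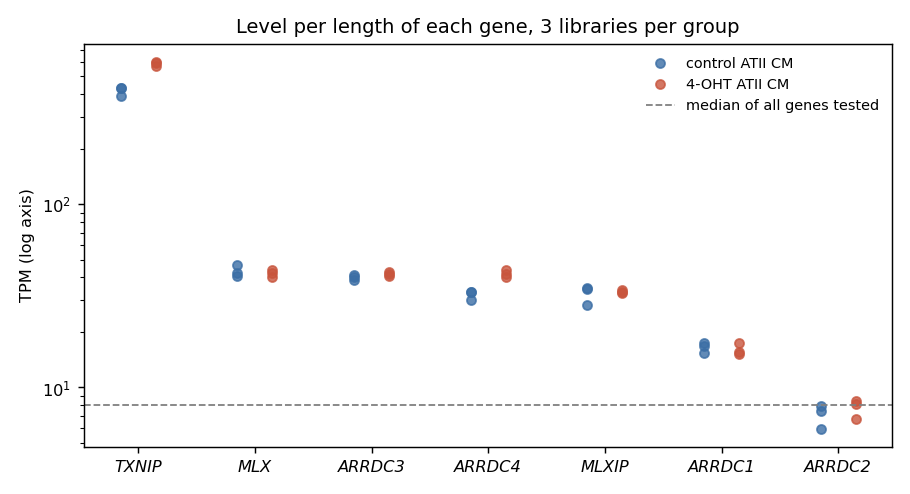
Level per length of the 7 genes (y axis, TPM on a log scale; points, the 3 libraries of each group; dashed line, median of all genes tested at 7.97 TPM). *TXNIP* lies about an order of magnitude above 4 genes that lie together between 28.4 and 46.5 TPM. It lies further above *ARRDC1* and *ARRDC2*, and *ARRDC2* lies near the median gene.

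For comparison between groups, counts were scaled to CPM with edgeR's TMM method. *TXNIP* (ENSG00000265972) lies on the minus strand of chromosome 1 of GRCh38 from 145992435 to 145996600, and no other gene of the table shares its exons. In replicates 1 to 3 of control CM it was at 380.3, 348 and 384 CPM, and in replicates 1 to 3 of 4-OHT CM at 526, 517 and 531 CPM. Every library of 4-OHT CM lay above every library of control CM, with a wide gap between them. The means were 371 ± 19.9 CPM and 525 ± 6.94 CPM (SD, n = 3), which is a log2 fold change of 0.50 (standard error 0.0372), or 1.41-fold. Its coefficient of variation between replicates was 5.36% and 1.32%, where counting error alone gives 1.14% and 0.884%.

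*ARRDC4* (ENSG00000140450), whose protein restrains glucose uptake like TXNIP, lies on the plus strand of chromosome 15 from 97960698 to 97973838 and shares exons with no other gene of the table. It was at 32.8, 30.3 and 33.3 CPM under control CM and at 39.8, 42.2 and 43.7 CPM under 4-OHT CM. The groups again did not overlap, at a level about an order of magnitude below *TXNIP*. The means were 32.2 ± 1.59 CPM and 41.9 ± 1.98 CPM (SD, n = 3), which is a log2 fold change of 0.38 (standard error 0.0531), or 1.3-fold. In both genes control CM replicate 2, the shallowest library, was the lowest of its group, and without it the log2 fold changes were 0.46 for *TXNIP* and 0.34 for *ARRDC4*.

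**Figure D3:**
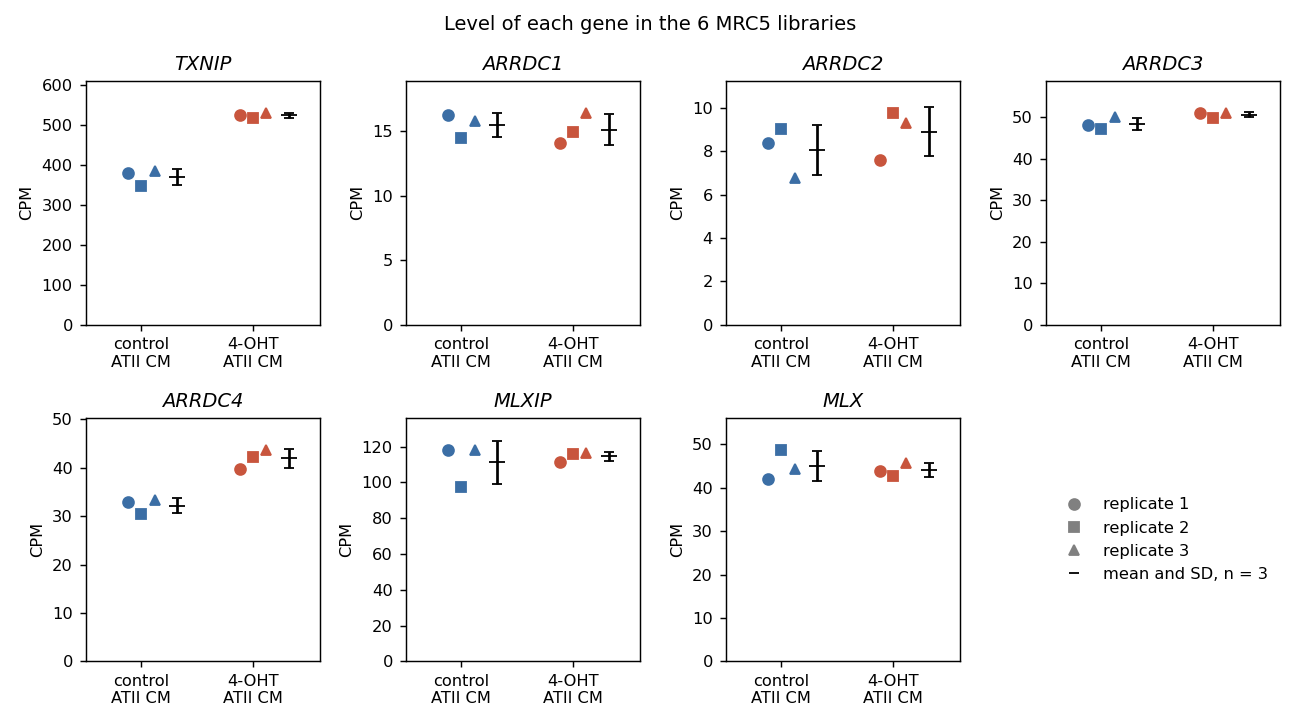
CPM of each of the 7 genes in the 6 libraries (y axis from 0; circle, square and triangle, replicates 1, 2 and 3; bar, mean and SD of 3 libraries). The groups are apart for *TXNIP* and *ARRDC4* and overlap for the other 5 genes.

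A ratio of counts within a library does not depend on how libraries are scaled. There were 8.64, 8.72 and 8.67 *ARRDC4* counts per 100 *TXNIP* counts under control CM (SD 0.0431, n = 3). In 4-OHT CM there were 7.57, 8.17 and 8.24. Counting error alone gives *ARRDC4* a coefficient of variation of 3.875% under control CM and 3.123% under 4-OHT CM. The control spread of the ratio is narrower than that and does not measure its precision. While both genes were higher in CPM under 4-OHT CM, this ratio was lower in each of its 3 libraries, most so in replicate 1. Whether the ratio differed beyond counting error was not tested. Per 100 *TXNIP* counts, *ARRDC3* had 12.7, 13.6 and 12.99 counts under control CM and 9.68, 9.65 and 9.61 under 4-OHT CM. The share of *TXNIP* in the summed TPM of the alpha-arrestins was 84.6 ± 0.465% under 4-OHT CM, and that sum was 514 ± 27.7 TPM under control CM and 695 ± 14.4 TPM under 4-OHT CM (SD, n = 3).

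The other arrestin-domain genes overlapped between groups. *ARRDC3* (ENSG00000113369, chromosome 5, 91368724 to 91383359, minus strand), an adaptor known for promoting breakdown of the β2-adrenergic receptor and of integrin β4, was at 48.1, 47.2 and 49.9 CPM under control CM and 50.9, 49.9 and 51.0 CPM under 4-OHT CM. Only its highest control and its lowest 4-OHT library touched, and its log2 fold change came to 0.063 (standard error 0.0414). Its antisense gene *ARRDC3-AS1*, which overlaps 2.94% of the exon bases of *ARRDC3*, had 6 to 16 counts in each library.

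*ARRDC1* (ENSG00000197070, chromosome 9, 137605654 to 137615360, plus strand), which drives budding of vesicles from the plasma membrane, was at 16.3, 14.5 and 15.8 CPM under control CM and 14.1, 14.9 and 16.4 CPM under 4-OHT CM. The groups were interleaved, with a log2 fold change of -0.035 (standard error 0.0798). *ARRDC1-AS1* on the opposite strand shares 29 exon bases with it and had 232 to 309 counts. ENSG00000283411 on the same strand shares 183 exon bases with *ARRDC1* and had at most 1 count in any library. *ARRDC2* (ENSG00000105643, chromosome 19, 18001132 to 18014102, plus strand) was at 8.39, 9.01 and 6.79 CPM under control CM and 7.63, 9.79 and 9.32 CPM under 4-OHT CM. With its low level came the widest spread of the family, and the log2 fold change of 0.16 had a standard error of 0.121. ENSG00000279172 on the opposite strand shares 442 exon bases with *ARRDC2* and had 0 counts in all 6 libraries.

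The 2 factors above *TXNIP* and *ARRDC4* showed no separation of groups at the RNA level. *MLXIP* (ENSG00000175727, chromosome 12, 122078722 to 122147347, plus strand) was at 118, 97.3 and 118 CPM under control CM and 112, 116 and 116 CPM under 4-OHT CM. Control CM replicate 2 was apart from the other 5 libraries, and without it the log2 fold change went from 0.038 (standard error 0.0586) to -0.046. *MLX* (ENSG00000108788, chromosome 17, 42567068 to 42573239, plus strand) was at 41.9, 48.8 and 44.2 CPM under control CM and 43.8, 42.7 and 45.8 CPM under 4-OHT CM, which is a log2 fold change of -0.024 (standard error 0.0543) that became 0.034 without control CM replicate 2. In that same library *MLX* was at its highest, with 50.1 *MLX* counts per 100 *MLXIP* counts against 35.5 to 39.4 in the other 5. The exons of *MLX* overlap those of *PSMC3IP* on the opposite strand over 18.1% of their length, and *PSMC3IP* had 80 to 128 counts per library.

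Of the 7 genes, 2 were DEGs, that is, had an adjusted p below 0.05 in edgeR's quasi-likelihood test over all 19072 genes tested. Both were upregulated. Among all genes tested 5.72% were DEGs, 2.95% upregulated and 2.76% downregulated. Since the group was built around a gene already known to be a DEG, nothing is read from its count. The groups were apart in 2 of the 7 genes, as in 22.1% of all genes tested. Their log2 fold changes had a median of 0.063, against -0.0020 over all genes tested.

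**Figure D4:**
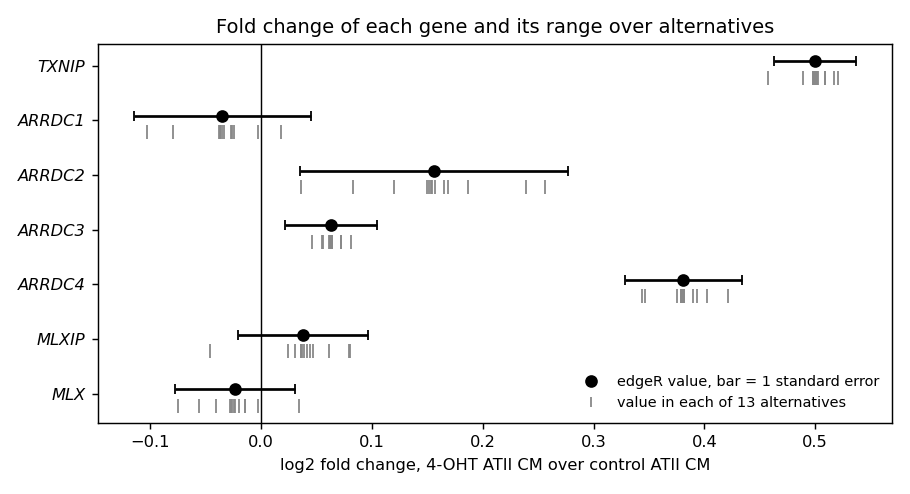
Log2 fold change of each of the 7 genes, 4-OHT CM over control CM (black point and bar, edgeR value and 1 standard error; gray ticks, the value in each of 13 alternative analyses). *TXNIP* stays between 0.46 and 0.52 and *ARRDC4* between 0.34 and 0.42, while the ticks of *ARRDC1*, *MLXIP* and *MLX* lie on both sides of 0.

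Genes that work beside the alpha-arrestins were listed by their known roles, and their tests from the same fit are given. These lists were drawn up with earlier results of these data known, so they are not free of that choice. Of 86 genes in 7 lists, 72 were tested, with 3 upregulated and 6 downregulated DEGs (12.5%, against 5.72% of all genes tested) and a median log2 fold change of 0.018. In the lists below, a gene is said to have risen or fallen only where its adjusted p was below 0.05.

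MLX belongs to a wider network of factors, some of which pair with MLX and others, such as MYC, MXI1 and MXD3, with its relative MAX. Of 10 genes of this network 8 were tested, 1 rose, 2 fell and 5 were not called, with a median of -0.028. *MLXIPL*, which encodes ChREBP, the glucose-responsive relative of MondoA in liver, had 0 counts in all 6 libraries, a depth that allows a level of up to 0.17 CPM in the shallowest one (3 counts). *MXI1*, a MAX-binding antagonist of MYC, was at 21.7 ± 1.78 CPM under control CM and rose to 27.5 ± 1.39 CPM (SD, n = 3 each), which is a log2 fold change of 0.34 (standard error 0.0682, edgeR adjusted p = 0.00689). *MYC* itself fell from 37.1 ± 0.738 CPM to 32.8 ± 0.601 CPM, by 0.18 on the log2 scale (edgeR adjusted p = 0.0379). *MXD3* fell from 6.11 ± 0.786 CPM to 4.28 ± 0.389 CPM, by 0.51 (edgeR adjusted p = 0.0331).

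The calls of *MYC* and *MXD3* were fragile. *MYC* was not called with DESeq2 (adjusted p = 0.105), with a replicate block (adjusted p = 0.0621) or without any single library (0.0631 to 0.126), and *MXD3* was lost without control CM replicate 2 or 3 or 4-OHT CM replicate 1 or 2 (0.0594 to 0.147). *MXI1* was called in all 13 alternatives.

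Other genes known to answer to ChREBP or MondoA, most of them enzymes of glycolysis and fat synthesis, were followed next. Of 12 listed, 7 were tested, 0 rose and 2 fell (median -0.100). *FASN*, the fatty acid synthase gene, was at 154, 145 and 155 CPM under control CM and 114, 115 and 115 CPM under 4-OHT CM, which is a log2 fold change of -0.40 (standard error 0.0380, edgeR adjusted p = 1.74e-05). *SCD*, which encodes stearoyl-CoA desaturase, fell from 502 ± 12.6 CPM to 430 ± 4.90 CPM (SD, n = 3 each), by 0.22 on the log2 scale (edgeR adjusted p = 0.000366). Both stayed called in all 13 alternatives.

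Among those not called, *KLF10*, a zinc finger factor gene, was at 43.8 ± 0.827 CPM and 48.3 ± 2.05 CPM (log2 fold change 0.14, edgeR adjusted p = 0.0830). *PFKFB3*, whose enzyme makes the activator of phosphofructokinase, was at 89.7 ± 0.148 CPM and 96.4 ± 2.09 CPM (log2 fold change 0.10, edgeR adjusted p = 0.123). *ACLY*, which encodes ATP citrate lyase, was at 297 ± 5.77 CPM and 279 ± 2.38 CPM (log2 fold change -0.089, edgeR adjusted p = 0.137). Of the 7 tested genes of the list, the groups were apart in 5, against 22.1% of all genes tested, and overlapped in *ACACA* and *ELOVL6*. The log2 fold change was above 0 in *KLF10* and *PFKFB3* and below 0 in the other 5. *PKLR*, *G6PC1* and *FGF21* had 0 counts in all libraries.

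Glucose transport and phosphorylation, the step that MondoA senses, was followed through 17 genes, of which 14 were tested, 1 rose and 1 fell (median 0.012). *SLC2A1*, which encodes the transporter GLUT1 that TXNIP brings to endocytosis, was at 248 ± 6.64 CPM under control CM and 256 ± 4.35 CPM under 4-OHT CM (SD, n = 3 each), which is a log2 fold change of 0.042 (standard error 0.0338, edgeR adjusted p = 0.592). *SLC2A10*, which encodes GLUT10, rose from 106 ± 1.74 CPM to 121 ± 2.98 CPM, which is a log2 fold change of 0.20 (edgeR adjusted p = 0.00440). Hexokinase 2, *HK2*, fell from 36.5 ± 0.185 CPM to 30.7 ± 1.33 CPM, by 0.25 on the log2 scale (edgeR adjusted p = 0.00629), and lost its call without 4-OHT CM replicate 3 (adjusted p = 0.0517). The hexokinase 1 gene, *HK1*, was at 158 ± 4.50 CPM and 153 ± 3.31 CPM and was not called.

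Thioredoxin, which TXNIP holds, was followed with its reductases, the peroxiredoxins as a family and related redox genes, 18 in all. All 18 were tested, 0 rose and 1 fell (median -0.013, range -0.17 to 0.12). *TXN*, which encodes thioredoxin, was at 211, 204 and 203 CPM under control CM and 214, 212 and 214 CPM under 4-OHT CM, which is a log2 fold change of 0.048 (standard error 0.0333, edgeR adjusted p = 0.519). Its groups were apart by a narrow margin, at 211 and 212 CPM. Its reductase gene *TXNRD1* was at 1078 ± 22.9 CPM and 1115 ± 15.3 CPM and was not called. The gene that fell was *PRDX6*, a peroxiredoxin, from 504 ± 15.5 CPM to 448 ± 2.09 CPM, by 0.17 on the log2 scale (edgeR adjusted p = 0.00399). The list did not sort the peroxiredoxins by what reduces them, so this fall is not read as one of the thioredoxin system.

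All 11 NEDD4-family ligases and adaptors were tested, 1 rose and 0 fell (median 0.017). *ITCH*, the ligase that marks TXNIP for breakdown, was at 83.3 ± 5.02 CPM and 87.3 ± 1.88 CPM (log2 fold change 0.064, edgeR adjusted p = 0.517). *NEDD4* was at 79.3 ± 3.07 CPM and 72.1 ± 1.83 CPM (log2 fold change -0.14, edgeR adjusted p = 0.0652). The one that rose was *NDFIP1*, an adaptor that activates ITCH and other ligases of the family, from 135 ± 4.11 CPM to 149 ± 2.23 CPM, which is a log2 fold change of 0.15 (edgeR adjusted p = 0.0248). Its call was lost without control CM replicate 1 or 3 or any single library of 4-OHT CM (adjusted p 0.0618 to 0.121).

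Other genes of the arrestin fold, including the beta-arrestins and the retromer subunits of the VPS26 type, were 8 in number, 6 of them tested, with 0 called (median 0.048). *ARRDC5*, the remaining arrestin-domain gene, had 0 counts in all libraries. AMPK, which phosphorylates TXNIP and sends it to breakdown, was followed through its subunits, its kinase gene *STK11*, *DDIT4* and *NLRP3*, 10 genes in all. Of these 8 were tested with 0 called (median 0.050), and *NLRP3*, a partner of TXNIP in the inflammasome, had 1 or 2 counts per library.

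**Figure D5:**
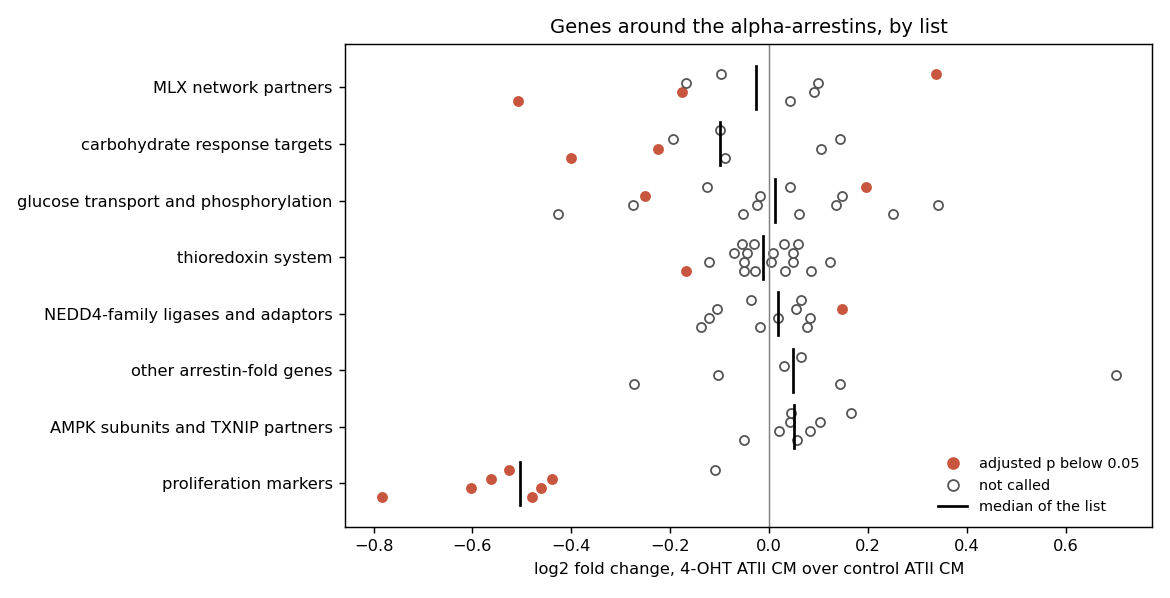
Log2 fold change of the tested genes of the 7 lists around the alpha-arrestins and of 8 proliferation markers (x axis, 4-OHT CM over control CM; each point a gene, filled where the edgeR adjusted p is below 0.05; vertical bar, median of the list). List medians lie between -0.10 and 0.05 except that of the proliferation markers, at -0.50.

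Proliferation markers moved with the groups. Of 8 such genes 7 fell and 0 rose (median -0.503), where 2.76% of all genes tested fell, and their summed level was 319 to 342 CPM under control CM and 228 to 255 CPM under 4-OHT CM. *MKI67*, the gene of the Ki-67 antigen, fell from 41.5 ± 4.596 CPM to 24.2 ± 0.896 CPM (SD, n = 3 each; log2 fold change -0.78, edgeR adjusted p = 1.01e-05). Their part in the *TXNIP* and *ARRDC4* values was not tested.

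The 10 tested genes nearest to *TXNIP*, 5 on either side along 0.995 Mb of chromosome 1, held 0 DEGs, and their log2 fold changes ran from -0.333 to 0.649 with a median of -0.004. Of the 10 nearest to *ARRDC4* on chromosome 15, 1 was a DEG, *SYNM*, and log2 fold changes ran from -0.490 to 1.539 with a median of -0.048. Of all genes tested, 5.72% were DEGs. This set was added after the values of *TXNIP* and *ARRDC4* were known.

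Likeness to *TXNIP* was measured as Pearson's r of log2 CPM over the 6 libraries among 9201 other genes with a mean of at least 10 CPM. The points share the difference between groups, and 622 genes (6.76%) had an r of at least 0.9. The highest were *RNF11* (0.998), *KLHL5* (0.998), *ARHGAP28* (0.997), *MAN1A1* (0.997) and *FSTL1* (0.996). Their differences between groups were smaller than that of *TXNIP*, with log2 fold changes from 0.10 for *RNF11* to 0.32 for *ARHGAP28*. *ARRDC4* ranked 78 with an r of 0.980 and *ARRDC3* ranked 840 with 0.861, while *MLXIP* (0.400), *ARRDC1* (-0.091) and *MLX* (-0.305) were far down the list. *ARRDC2*, with group means of 8.07 and 8.91 CPM, was below the cut of 10 CPM and was not ranked.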

How the data were processed

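RNA-Seq was done on 6 libraries of MRC5 cells, 3 per group, grouped by sample title. Paired-end reads were trimmed (Trim Galore), aligned (HISAT2 2.1.0, GRCh38) and assigned to genes (featureCounts 1.6.5) by the authors, who deposited raw counts with the merged exon length of each gene. The annotation release, strand setting and treatment of multiply mapped reads are not given in the sources used here, so reads shared with an overlapping gene cannot be assigned. Counts of 45 identifiers listed on more than 1 line were added up, and symbols came from GENCODE by identifier.

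Genes with at least 10 counts over the 6 libraries were tested with edgeR 4.0.16 in R 4.3.3 (TMM, quasi-likelihood test, group as the only term, Benjamini-Hochberg adjustment over all genes, threshold 0.05). Standard errors were derived from the fold change and F statistic. Alternatives were DESeq2 1.42.0, limma-voom (limma 3.58.1), RLE and upper-quartile factors, other count filters, a replicate block and leaving out each library. Log2 CPM values used a prior count of 2. The allowance behind a count of 0 is 3 counts at a confidence of 95% and covers counting error only. The scripts were tested on simulated data. The square root of the common dispersion, the variation beyond counting, was 4.36%, and replicate pairs differed by more than counting noise (chi-square per degree of freedom 2.04 to 5.56).

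Members and gene lists were chosen with earlier results of these data known. The rule for named genes took all 7 members, genes overlapping them, called list genes, *MLXIPL*, *SLC2A1*, *TXN*, *ITCH*, *NEDD4* and *MYC*, and the 5 genes most like *TXNIP*. *KLF10*, *PFKFB3*, *ACLY*, *ACACA*, *ELOVL6*, *HK1*, *TXNRD1*, *NLRP3*, *SYNM*, the marker genes and the list genes at 0 fall outside it and were named after their values were seen. Protein sequences were not used here, and the construct carried by the ATII line is not reported here.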

Additional observations from a re-analysis of the deposited data

How the results depend on the processing

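*TXNIP* and *ARRDC4* had higher levels in 4-OHT ATII CM in all 13 alternatives. Since *TXNIP* was chosen from this same comparison, this describes how the values depend on the processing and is no support for the difference. With 1 library left out, log2 fold changes ran from 0.457 to 0.521 for *TXNIP*, 0.344 to 0.421 for *ARRDC4*, 0.046 to 0.081 for *ARRDC3*, 0.036 to 0.256 for *ARRDC2*, -0.103 to 0.018 for *ARRDC1*, -0.046 to 0.080 for *MLXIP* and -0.075 to 0.034 for *MLX*. None of the last 5 was called in any alternative, and the sign turned without 4-OHT ATII CM replicate 1 for *ARRDC1* and without control ATII CM replicate 2 for *MLXIP* and *MLX*. The number of DEGs among all genes was 1090 and ran from 533 to 1530 with 1 library left out. It was 663 without control ATII CM replicate 3, 533 without 4-OHT ATII CM replicate 2 and 615 without 4-OHT ATII CM replicate 3. In the other 7 alternatives it ran from 954 with DESeq2 to 1601 with no count filter. Among the genes of the 7 lists, 3 were upregulated, 6 with no count filter, and 2 to 6 with 1 library left out, the highest number without control ATII CM replicate 2. The downregulated number was 6 and ran from 4 to 5 with 1 library left out. *NEDD4* was called without control ATII CM replicate 3 (adjusted p = 0.0489) and *KLF10* with no count filter (adjusted p = 0.0350). The cause of these shifts was not tested.

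Libraries of the same replicate number showed no sign of pairing. Deviations from group means correlated at -0.0145, -0.104 and -0.0931 between libraries of the same number, over 9691 genes. Between libraries of different numbers the values ran from -0.0645 to 0.161. With 3 libraries per group this check cannot exclude a paired design. With a replicate block, the log2 fold changes were 0.502 for *TXNIP* and 0.382 for *ARRDC4*, the number of DEGs among all genes was 985, and of the 7 members and 15 list genes refitted in this way, *MYC* changed its call.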
